A study of Mus musculus with 12 samples.

Results

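The genes Sufu, Kif7, Spop, Cul3, Cul1, Btrc, Fbxw11, Gsk3b and Csnk1a1, which encode the inhibitors, ubiquitin ligase subunits and kinases that act on the GLI transcription factors, were examined in mouse muscle satellite cells with and without Gli3. They were chosen by symbol for these roles, and all 9 are among the 25093 genes of the deposited count table. The mice carried Pax7-CreERT2, in which the tamoxifen-inducible Cre is placed downstream of the Pax7 stop codon, together with an R26R-YFP reporter, and were either Gli3+/+ (control) or Gli3 fl/fl. Both genotypes received daily tamoxifen injections followed by a tamoxifen diet, which removes exon 8 of the floxed gene in satellite cells (Gli3 Δ/Δ). The age given for the samples is 3 to 4 months. The series holds 12 libraries in 4 groups of 3. Quiescent satellite cells (QSCs) were sorted as α7-integrin+ CD34+ cells, negative for CD31, CD45, SCA1 and CD11b, from uninjured hindlimb muscle, and each QSC library combined 2 to 3 mice. Activated satellite cells (ASCs) came from muscle 3 days after cardiotoxin, 1 mouse per library. The 6 columns of ASC counts match no sample label, so the values below are those of the 6 QSC libraries. Sorting takes time in which cells start to activate, so QSC here means cells isolated from uninjured muscle.

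In Hedgehog signalling, the full-length GLI2 and GLI3 proteins can either activate transcription or be cut by the proteasome into shorter repressors, and GLI3 is the main source of repressor. SUFU holds GLI proteins in the cytoplasm, and KIF7 organises them at the tip of the primary cilium. After priming by protein kinase A, GSK3β and casein kinase 1 phosphorylate GLI proteins, β-TrCP recruits the phosphorylated protein to a CUL1 ligase for partial degradation, and SPOP recruits full-length GLI proteins to a CUL3 ligase for complete degradation. The kinases and ligase subunits have many other substrates, and their transcripts are found in most tissues.

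None of the 9 genes passed the test for a change with loss of Gli3 in QSCs, and their levels lay close together in both genotypes. By edgeR's quasi-likelihood test, 0 of 9 members passed an adjusted p of 0.05 with a fold change of at least 1.2, where 0.351% of all 25093 genes did (88 genes, 47 higher and 41 lower in Gli3 Δ/Δ). At an unadjusted p under 0.05 the count of members was also 0, where 7.11% of all genes passed, and DESeq2 and limma-voom called 0 of 9 as well. The fitted difference was lower in Gli3 Δ/Δ for 7 members and higher for 2, with a median log2 fold change of −0.06 beside −0.03 over all genes tested. In this fit of all 6 libraries, every member's 95% confidence interval stayed within a 1.5-fold change in either direction. The farthest bound was 1.47-fold lower, for Fbxw11. Changes inside each member's interval could not be told from the spread of 3 libraries per group.

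**Figure D1:**
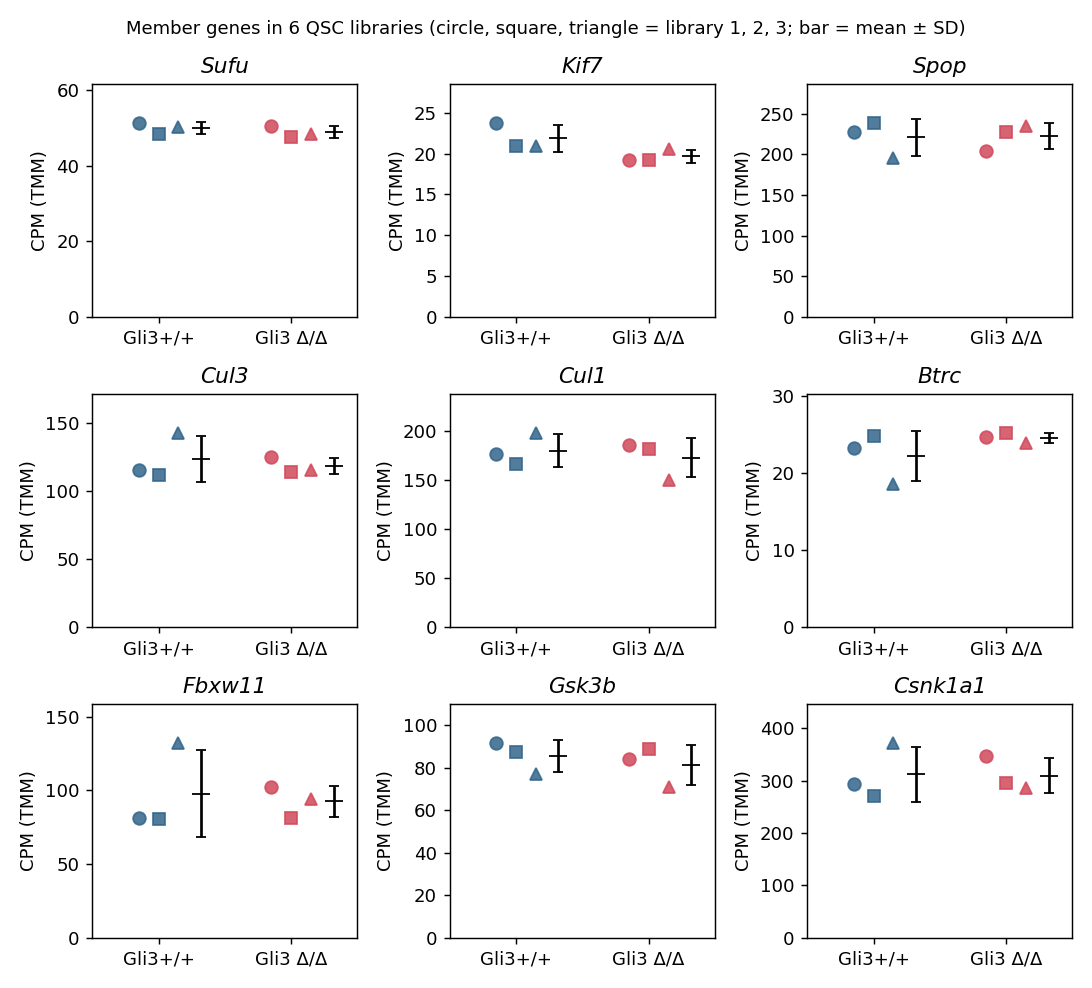
Normalised level (CPM, counts scaled to a common library size, after edgeR's TMM scaling) of each member in the 3 Gli3+/+ (blue) and 3 Gli3 Δ/Δ (red) QSC libraries, with the mean ± SD of each group in black. The groups overlap in every panel except Kif7, and for Fbxw11, Csnk1a1, Cul3 and Cul1 the highest point is Gli3+/+ library 3.

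The libraries held between 39556784 and 65750131 estimated counts, and each member had at least 801 counts in every library (the lowest was Btrc). Counts alone give a CV (the SD as a percentage of the mean) of 0.78% for Csnk1a1 to 3.01% for Kif7. Gli3+/+ library 3 stood apart from the rest. Of 9592 genes with a mean of at least 10 CPM, 1331 (13.9%) lay more than 1.3-fold above or below all 5 other libraries in it, and between 1.25% and 2.19% did so in each of the other libraries. The satellite cell markers were present in every library (9 of 9 genes measured, the highest being Chodl at a mean of 2010 CPM). Their sum reached 8910 CPM in that library and 6840 to 6970 CPM in the others, but the markers did not rise together there. Sdc4 was at 2.67 and Vcam1 at 1.60 times the mean of the other 5 libraries, while Myf5 was at 0.833 and Calcr at 0.543 times. The fibro-adipogenic markers (4 of 4 measured), cells that the SCA1-negative gate should remove, summed to 414 CPM against 171 to 281 CPM. Of these, Col1a1 was at 2.55 and Ly6a, the gene of SCA1, at 1.29 times the mean of the others. Dcn was at 0.832 and Pdgfra at 0.732 times. Member fold changes are therefore also given without this library wherever it turns the sign or moves the value, and what sets it apart was not tested. In bulk samples such as these, fewer cells of a type and less RNA per cell cannot be told apart.

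Sufu, the cytoplasmic inhibitor of GLI proteins (ENSMUSG00000025231.16, chromosome 19 of GRCm38, 46396896 to 46488804, plus strand), had the lowest CV of the members over the 6 libraries. Its level was 51.4, 48.3 and 50.3 CPM in Gli3+/+ and 50.6, 47.7 and 48.4 CPM in Gli3 Δ/Δ. The values of both genotypes overlapped, and no library stood out. The group means were 50.0 ± 1.54 and 48.9 ± 1.53 CPM (SD, n = 3 each). The log2 fold change of Gli3 Δ/Δ over Gli3+/+ was −0.03 (SE 0.12, 95% interval −0.30 to 0.24, edgeR adjusted p = 0.99), and it was also −0.03 without Gli3+/+ library 3. The interval corresponds to a level between 0.814 and 1.18 times that of the controls.

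Kif7, the kinesin-like regulator at the ciliary tip (ENSMUSG00000050382.14, chromosome 7, 79698098 to 79715720, minus strand), was counted at 23.8, 20.9 and 20.9 CPM in Gli3+/+ and at 19.2, 19.2 and 20.6 CPM in Gli3 Δ/Δ. It was the 1 member of 9 whose groups did not overlap, by a gap of less than 1 CPM, and 13% of all genes did not overlap either (12.5% of the genes with a mean of at least 10 CPM). Mean levels were 21.9 ± 1.71 and 19.6 ± 0.787 CPM (SD, n = 3 each). The difference was a log2 fold change of −0.15 (SE 0.14, 95% interval −0.46 to 0.16) and did not pass the test (edgeR adjusted p = 0.905, the lowest of the members). Without Gli3+/+ library 3 it was −0.19 (edgeR adjusted p = 0.8). Markers of Schwann cells, which a sort could carry along, had the same direction. All 4 of 4 markers were lower in Gli3 Δ/Δ without overlap, none was at 0 in any library, and their sum ranged from 68.2 to 99.8 CPM in Gli3+/+ and from 32.3 to 47.6 CPM in Gli3 Δ/Δ. The mural markers, 3 of 3 lower and none at 0, summed to 48.9 to 85.6 CPM and 27.0 to 48.0 CPM. No marker of either list was called, and the part of such cells in the Kif7 values was not tested.

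Spop, which brings full-length GLI proteins to the CUL3 ligase (ENSMUSG00000057522.15, chromosome 11, 95414080 to 95493406, plus strand), was counted at 228, 239 and 195 CPM in Gli3+/+ and at 204, 227 and 235 CPM in Gli3 Δ/Δ. The lowest value was that of Gli3+/+ library 3, and the groups overlapped across nearly their whole range. The means were 221 ± 22.5 and 222 ± 16.0 CPM (SD, n = 3 each), a log2 fold change of 0.01 (SE 0.14, 95% interval −0.30 to 0.32, edgeR adjusted p = 1.0). Leaving out Gli3+/+ library 3 turned the sign, to −0.07, with no call on either side.

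Cul3, the scaffold to which SPOP binds (ENSMUSG00000004364.14, chromosome 1, 80264923 to 80340480, minus strand), was counted at 116, 112 and 143 CPM in Gli3+/+ and at 125, 114 and 116 CPM in Gli3 Δ/Δ. Gli3+/+ library 3 was the highest, at 1.23 times the mean of the other 5 libraries, and those 5 lay close together. The log2 fold change was −0.06 (SE 0.14, 95% interval −0.38 to 0.26, edgeR adjusted p = 0.971) and became 0.06 without that library. Spop and Cul3 thus moved in opposite directions in Gli3+/+ library 3, where Spop was at 0.862 times the mean of the others.

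Cul1, the scaffold of the SCF ligases (ENSMUSG00000029686.15, chromosome 6, 47453398 to 47526139, plus strand), was counted at 176, 166 and 198 CPM in Gli3+/+ and at 186, 182 and 150 CPM in Gli3 Δ/Δ. The highest library was Gli3+/+ library 3 and the lowest was Gli3 Δ/Δ library 3, with the other 4 in between. The log2 fold change was −0.06 (SE 0.14, 95% interval −0.38 to 0.26, edgeR adjusted p = 0.975). Without either of these libraries it turned to 0.01 and 0.03.

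Btrc and Fbxw11 encode the 2 β-TrCP proteins, F-box receptors that recognise phosphorylated GLI, β-catenin and IκB. Btrc (ENSMUSG00000025217.15, chromosome 19, 45363734 to 45530013, plus strand) was counted at 23.2, 24.8 and 18.6 CPM in Gli3+/+ and at 24.6, 25.2 and 23.9 CPM in Gli3 Δ/Δ. Of these, 5 values lay within 23.2 to 25.2 CPM and only Gli3+/+ library 3 was lower, at 0.764 times the mean of the other 5. The log2 fold change of 0.14 (SE 0.15, 95% interval −0.20 to 0.48, edgeR adjusted p = 0.919) fell to 0.03 when that library was left out. Fbxw11 (ENSMUSG00000020271.17, chromosome 11, 32642724 to 32746816, plus strand) was counted at 81.0, 80.2 and 132 CPM in Gli3+/+ and at 102, 81.4 and 93.8 CPM in Gli3 Δ/Δ. The same library was here the highest of all, at 1.51 times the mean of the others. Its means were 97.8 ± 29.8 and 92.4 ± 10.4 CPM (SD, n = 3 each), with a log2 fold change of −0.08 (SE 0.21, 95% interval −0.56 to 0.39, edgeR adjusted p = 0.978). Without Gli3+/+ library 3 the sign turned, to 0.20 (edgeR adjusted p = 0.781).

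The kinases were represented by Gsk3b and Csnk1a1, which also act on β-catenin in Wnt signalling. Gsk3b (ENSMUSG00000022812.14, chromosome 16, 38089001 to 38246084, plus strand) was counted at 91.6, 87.6 and 77.0 CPM in Gli3+/+ and at 84.0, 88.8 and 70.7 CPM in Gli3 Δ/Δ. Library 3 was the lowest of each genotype, and the groups overlapped. The log2 fold change was −0.07 (SE 0.14, 95% interval −0.39 to 0.25, edgeR adjusted p = 0.961), and −0.14 without Gli3+/+ library 3. Csnk1a1 (ENSMUSG00000024576.14, chromosome 18) was counted at 293, 271 and 372 CPM in Gli3+/+ and at 348, 295 and 287 CPM in Gli3 Δ/Δ, with the highest value again in Gli3+/+ library 3. Its log2 fold change was −0.01 (SE 0.16, 95% interval −0.38 to 0.36, edgeR adjusted p = 1.0), and 0.14 without that library (edgeR adjusted p = 0.856).

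**Figure D2:**
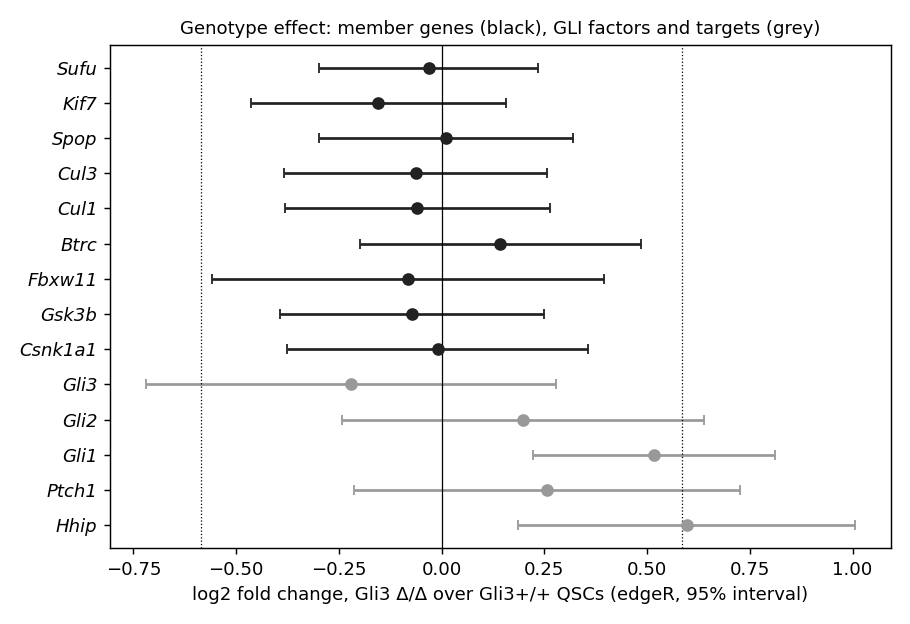
Log2 fold change of Gli3 Δ/Δ over Gli3+/+ QSCs from edgeR with its unadjusted 95% interval, for the 9 members (black) and for GLI factors and targets (grey), 3 libraries per group, with dotted lines at 1.5-fold. All 9 member intervals cross 0 and stay inside the dotted lines, while those of Gli1 and Hhip lie above 0 although neither gene passed the adjusted threshold.

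The members differed in how steady they were over the 6 libraries. The CV was 3.01% for Sufu and 21.2% for Fbxw11, and the median over the 9592 genes with a mean of at least 10 CPM was 13.9%. Of the 9 members, 8 lay below that median. Only 0.292% of these genes (28 genes) varied less than Sufu, whose counts alone give a CV of 1.95%, a large part of its spread. For Sufu the CV was 4.35% when libraries were scaled by their totals without TMM, with 1.58% of genes below it, and 2.66% to 3.25% when each library was left out in turn, with 0.324% to 1.62% of genes below it (settings chosen after seeing the data). The highest share, 1.62%, came without Gli3+/+ library 3, and there Btrc at 3.21% was level with Sufu at 3.25%. The share of genes with a lower CV was 14.0% for Spop, 15.6% for Kif7, 22.6% for Cul1, 23.7% for Gsk3b, 25.5% for Cul3, 29.5% for Btrc, 43.6% for Csnk1a1 and 77.7% for Fbxw11. These shares depend on single libraries and on the scaling. Without Gli3+/+ library 3, the share fell to 1.56% for Btrc, 4.84% for Cul3 and 51.1% for Fbxw11, and was 36.0% for Kif7 and 39.9% for Gsk3b. Without Gli3+/+ library 1 it was 1.88% for Kif7, and without Gli3 Δ/Δ library 3 it was 10.6% for Cul1 and 11.5% for Gsk3b. With library totals in place of TMM it was 33.0% for Spop, 4.0% for Cul3, 11.9% for Cul1, 48.8% for Btrc, 38.1% for Gsk3b and 22.6% for Csnk1a1. The order of the members is therefore not settled, and Sufu was the lowest in every setting except that without Gli3+/+ library 3. A lower CV is easier to reach for a gene with many counts, so these shares describe the genes at their own depth.

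**Figure D3:**
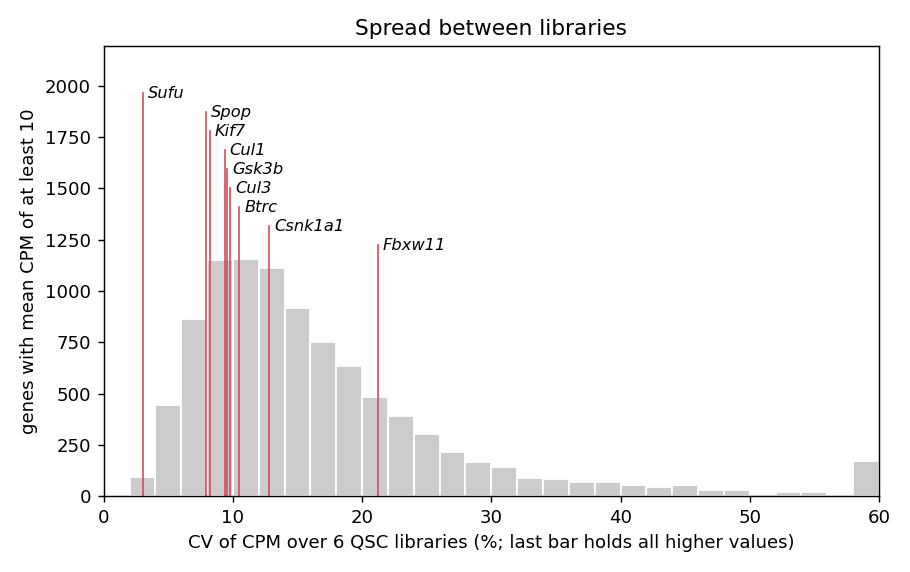
Distribution of the coefficient of variation over the 6 QSC libraries for 9592 genes with a mean of at least 10 CPM (grey bars, genes per 2% step), with red lines at the members. Sufu lies at the left edge of the distribution at 3.01% and Fbxw11 to the right of the median of 13.9% at 21.2%.

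By pattern over the 6 libraries (root mean square distance of log2 CPM centred on each gene's mean), the genes most like Sufu were Cog5 at a distance of 0.011, Zyg11b at 0.02 and Faf2 at 0.031. Sufu has a nearly flat pattern, and 1013 genes (10.6% of 9592) lay within a distance of 0.1 of it. The genes most like Kif7 were Sowahc at 0.021, Ddx20 at 0.025 and Lsm8 at 0.037, with 288 genes (3.0%) within 0.1. Neither neighbourhood is therefore particular to a few genes.

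The first 4 ratios within a library compare close relatives and the fifth compares both cullin scaffolds, and none of them depends on how libraries are scaled. The ratio of Fbxw11 to Btrc counts was 3.49, 3.23 and 7.11 in Gli3+/+ and 4.15, 3.23 and 3.93 in Gli3 Δ/Δ. In 5 libraries it lay between 3.23 and 4.15, and in Gli3+/+ library 3 it was higher than in any other. The genotype difference was −0.20 on the log2 scale (exact permutation test, two-sided, p = 0.9), and 0.16 without that library. Spopl, a close relative of Spop, stood to Spop at 0.142, 0.115 and 0.186 in Gli3+/+ and at 0.177, 0.151 and 0.147 in Gli3 Δ/Δ, a log2 difference of 0.12 (exact p = 0.6). Gsk3a, the other GSK3 gene, stood to Gsk3b at 0.940, 1.01 and 1.18 and at 1.01, 0.958 and 1.24, a log2 difference of 0.04 (exact p = 0.6). These groups overlapped in each ratio.

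Kif27, the nearest relative of Kif7, was counted at no more than 0.652 CPM in any library. Its ratio to Kif7 was 0.0208, 0.0312 and 0.0167 in Gli3+/+ and 0.0149, 0.0256 and 0.00861 in Gli3 Δ/Δ, a log2 difference of −0.57 (exact p = 0.4). Cul3 stood to Cul1 at 0.657, 0.671 and 0.725 and at 0.673, 0.625 and 0.770, a log2 difference of 0.01 (exact p = 0.9). None of the 5 ratios separated the genotypes, and each Benjamini-Hochberg adjusted value over the 5 was 0.9. With 3 against 3 libraries the exact test cannot go below p = 0.1, so no ratio could have passed a threshold of 0.05.

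**Figure D4:**
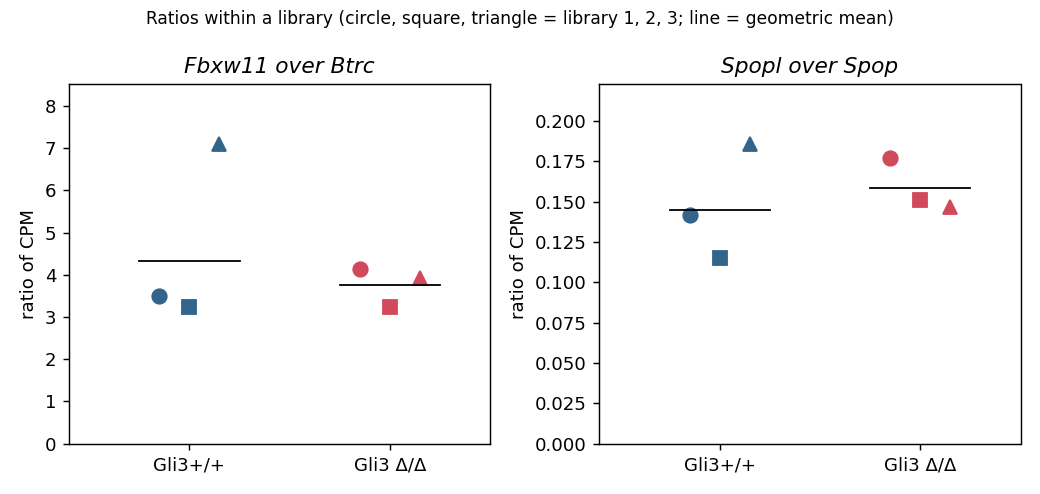
Ratio of CPM within each of the 6 QSC libraries for Fbxw11 over Btrc and for Spopl over Spop, by genotype, with the geometric mean of each group as a line. For Fbxw11 over Btrc, Gli3+/+ library 3 is at 7.11 and the other 5 libraries lie between 3.23 and 4.15.

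Levels of different genes were compared per kilobase of annotated exon. In Gli3+/+ QSCs, Spop was the most abundant at 69.8 ± 7.12 CPM per kb, followed by Cul1 at 44.6 ± 3.94 and Csnk1a1 at 29.7 ± 5.08 CPM per kb (SD, n = 3 each). Cul3 was at 25.3 ± 3.51 and Fbxw11 at 22.6 ± 6.88 CPM per kb. The ranges over the 6 libraries of Csnk1a1 and Cul3 overlapped, as did those of Cul3 and Fbxw11, so the order of these 3 is not resolved. The kinase Gsk3b, both inhibitors and Btrc came lower. Gsk3b was at 8.68 ± 0.767, Sufu at 6.50 ± 0.200, Kif7 at 4.77 ± 0.372 and Btrc at 1.31 ± 0.192 CPM per kb, and none of these neighbours overlapped in range.

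The place of Btrc depends on the length used. Its 11 annotated transcripts cover 16.9 kb of exon in all but average 2.24 kb. Per kb of mean transcript length Btrc stood at 9.92 ± 1.45 CPM and Kif7, whose transcripts average 4.43 kb, at 4.94 ± 0.385 CPM (SD, n = 3 each), so that Kif7 became the lowest, and Cul1 passed Spop. The positions of the other 5 members stayed as they were. Under this length the ranges over the 6 libraries overlapped for Cul1 and Spop, Spop and Csnk1a1, Fbxw11 and Gsk3b, and Gsk3b and Sufu, so these neighbours are not resolved.

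**Figure D5:**
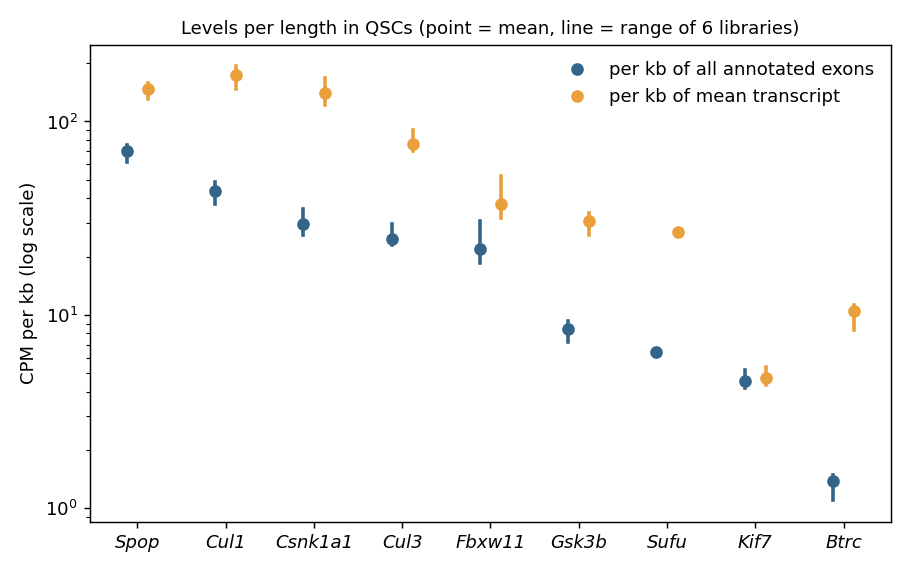
Level per length of each member in QSCs on a log scale, as the mean (point) and range (line) of the 6 libraries, divided by the length of all annotated exons (blue) or by the mean annotated transcript length (orange). Spop and Cul1 have the highest means under both lengths, with the range of Csnk1a1 overlapping that of Spop under the mean transcript length, and Btrc and Kif7 are the lowest under both and trade places between them.

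Genes of 7 lists by role, around GLI processing, ubiquitin ligases and Wnt and Hedgehog signalling, were examined in the same way. Of 100 symbols in them, 99 were measured, and the other, Skp1, is a synonym of the measured Skp1a. Of these 99 genes edgeR called 0, beside 0.351% of all genes, so 0 calls is near that share. An unadjusted p under 0.05 was reached by 4, beside 7.11% of all genes. The median log2 fold change of the 99 was −0.01. The groups did not overlap for 11 of them (11.1%, beside 13% of all genes). DESeq2 called 1 of them, Gli1, beside 384 of all 25093 genes. The kinases other than members (13 genes) had a median of −0.02, with Csnk1g1 at −0.25 and Dyrk1a at −0.17 the nearest to a call. The cullin-RING core, which loads, neddylates and recycles the scaffolds (26 genes measured), had a median of −0.01, with Cops7a at 0.27 and Nedd8, the modifier that switches cullins on, at 0.21.

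Other ligase subunits, adaptors and deubiquitinases reported to act on GLI or SUFU (13 genes) had a median of −0.04, with Kctd11 at −0.24. Genes of the Wnt destruction complex, its substrate and its regulators (11 genes) had a median of −0.08. The complex shares GSK3β, casein kinase 1 and β-TrCP with GLI processing. Of these genes, Ppp2r5a, a phosphatase subunit, was at −0.22 and Dvl1, a regulator, at −0.14. Among adaptors that compete with SPOP for CUL3 (16 genes, median −0.04), Klhl12 was at −0.38 and Klhl21 at −0.37. Among F-box receptors that compete with β-TrCP for CUL1 (14 genes, median 0.02), the low-count gene Fbxo40 was at 1.02 and Fbxo11 at −0.24. Each of these values failed the test (edgeR adjusted p from 0.577 for Klhl12 to 0.923 for Dvl1).

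The list of GLI factors and their targets had a median log2 fold change of 0.30, with 6 of 7 genes higher and 0 called by edgeR. Gli1, a direct target of Hedgehog signalling, was counted at 44.0, 46.1 and 47.1 CPM in Gli3+/+ and at 58.0, 70.5 and 67.8 CPM in Gli3 Δ/Δ. The groups did not overlap, and the log2 fold change was 0.52 (SE 0.13, edgeR adjusted p = 0.263, DESeq2 adjusted p = 0.0339). Hhip, a target that binds Hedgehog ligands, was at 0.60 (SE 0.18, edgeR adjusted p = 0.424), Ptch1, the Hedgehog receptor, at 0.26 (SE 0.21, edgeR adjusted p = 0.895) and Gli2 at 0.20 (SE 0.19, edgeR adjusted p = 0.914). Gli3 itself was counted at 11.2, 9.71 and 9.75 CPM in Gli3+/+ and at 9.54, 10.5 and 6.25 CPM in Gli3 Δ/Δ (edgeR adjusted p = 0.916). A count over the whole gene need not fall with the loss of exon 8, so this count does not check the genotype labels. The paper reported efficient Gli3 excision in QSCs by RT-qPCR, and a significantly lower Gli3 level in Gli3 Δ/Δ ASCs by RNA sequencing. Whether the effect on Gli1 differs from that on any member was not tested.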

How the data were processed

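The authors quantified transcripts with salmon v0.13.1 (GENCODE vM19, GRCm38), summed them to genes with tximport, kept genes with at least 5 reads in at least 2 samples, and deposited estimated counts without normalization (49.2% of the QSC values are not whole). They were rounded here. The authors' 4 tables of their DESeq2 comparisons hold fold changes and p-values, which were not used, and a mean signal per gene over all 12 libraries (counts divided by size factors), used as the authors' mean. The 6 ASC count columns match no label and were not used, so the planned tests in ASCs and between cell states were not run.

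Libraries held 39556784 to 65750131 counts. QSC genotypes were compared with edgeR 4.0.16 (R 4.3.3; TMM, quasi-likelihood, two-sided, Benjamini-Hochberg over 25093 genes, no added filter). The study's own thresholds defined a call (adjusted p below 0.05, change of 1.2-fold or more). Ratios were tested by exact permutation. Alternatives were DESeq2 1.42.0, limma 3.58.1 voom, other normalization and filters, the replicate number as a block, and leaving out each library; the fits were tested on simulated data. GENCODE vM21, which is also on GRCm38, gave exon lengths and positions. The members and lists were chosen with earlier results of these data known. Named are the members, their ratio partners, the 2 genes of each list with the lowest unadjusted p, Gli1, Gli2, Gli3 and Ptch1, the 3 genes most like Sufu and Kif7, and marker lists by their sum. The result for 1 gene that this rule names is not reported here. Between 0% and 1.67% of each member's 31-base words occur in another gene, the most for Spop, so little of their counts could be shared out to other genes.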

Additional observations from a re-analysis of the deposited data

How the results depend on the processing

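No member was called under any of 11 alternatives (lowest adjusted p 0.781), and 0 of 9 stands in each. The genes called over the whole table numbered 88 with edgeR, 384 with DESeq2 (all 88 among them), 57 with limma-voom and 58 to 103 when single libraries were left out, the lowest without Gli3 Δ/Δ library 3. Of the 99 measured genes of the lists by role, DESeq2 called 1 and edgeR 0. Signs turned in 13 of 99 member and setting pairs, in 6 members and by small values. Without Gli3+/+ library 3, the log2 fold change was −0.07 for Spop, 0.06 for Cul3, 0.01 for Cul1, 0.2 for Fbxw11 and 0.14 for Csnk1a1. Without Gli3 Δ/Δ library 2 it was −0.01 for Spop, 0.0026 for Fbxw11 and 0.03 for Csnk1a1, and −0.03 for Gli2. Without Gli3 Δ/Δ library 3 it was −0.03 for Spop, 0.03 for Cul1, 0.02 for Gsk3b and 0.04 for Csnk1a1, and with limma-voom 0.00023 for Csnk1a1. Over single libraries left out, the values ran from −0.07 to 0.08 for Spop, −0.12 to 0.06 for Cul3, −0.12 to 0.03 for Cul1, −0.2 to 0.2 for Fbxw11, −0.14 to 0.02 for Gsk3b, −0.1 to 0.14 for Csnk1a1 and −0.03 to 0.31 for Gli2. Sufu, Kif7 and Btrc kept their direction under every alternative run. The cause of these shifts was not tested. Same-numbered libraries deviated with correlations of −0.34, −0.01 and −0.08, so the replicate numbers show no pairing. Between differently numbered libraries the correlations ran from −0.27 to 0.41. The highest were 0.41 for Gli3+/+ library 1 with Gli3 Δ/Δ library 2 and 0.31 for Gli3+/+ library 3 with Gli3 Δ/Δ library 1. What such libraries share was not tested. With the replicate number as a block, edgeR called 79 genes and 0 members, and 1 of the 5 ratios (Kif27 over Kif7) reached the smallest p that 3 pairs allow, 0.25 by the exact paired permutation test. With the mean transcript length, 5 of 9 members kept their position in the order of levels. At this depth and with 3 libraries a group, changes inside a member's 95% interval are not resolved. In the fit of all 6 libraries this interval ran from 0.814 to 1.18 times the control level for Sufu and from 0.68 to 1.31 times for Fbxw11. With single libraries left out, the SE for Fbxw11 ran from 0.13 to 0.26, beside 0.21 in that fit. The 1.5-fold limit given for the member intervals therefore need not hold there. Each QSC library mixes several mice.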

Other observations

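The authors' mean over all 12 libraries, which includes the 6 ASC libraries, was set beside the QSC mean of each gene, as a ratio scaled to the median of 9117 protein-coding genes. A ratio above 1 describes a gene with a higher share of the ASC libraries than the typical gene. It was 1.3 for Cul3, 1.2 for Gsk3b and Csnk1a1, 1.01 for Fbxw11, 0.948 for Cul1 and Btrc, 0.942 for Sufu, 0.909 for Kif7 and 0.811 for Spop. The member ratios exceeded those of 26.7% (Spop) to 75.5% (Cul3) of the genes compared, in the broad middle of the distribution. The GLI genes lay farther out. Gli2 was at 0.551, Gli1 at 0.587 and Ptch1 at 0.727, and Gli3 at 2.44, above 96.8% of genes. These ratios are the authors' pooled values divided by values computed here, and have no error and no test.

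The promoters of the members, from 250 bases before to 50 after each start site in RefSeq (GRCm38.p6), were searched on both strands for the GLI consensus GACCACCCA and its core ACCACCC, which lies within it. Entries were found for 7 of 9 members, 9 promoters in all, and 0 held either word. Over 32851 promoters of the same length, 0.253% held the consensus and 4.61% the core. The promoters searched for the GLI targets Ptch1 and Hhip held neither word either, so the search cannot tell such targets from other genes. It says only that these letters are not in these windows.

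Of the 5 myogenic commitment genes, 4 were fitted higher in Gli3 Δ/Δ QSCs (median log2 fold change 1.12), and edgeR called 0. Among these 4, 2 were at an unadjusted edgeR p under 0.05, beside 7.11% of all genes. The same 2 were without overlap, beside 13% of all genes. Myog, a regulator of differentiation, was counted at 4.94, 2.61 and 6.31 CPM in Gli3+/+ and at 14.2, 9.67 and 9.05 CPM in Gli3 Δ/Δ, a log2 fold change of 1.25 (SE 0.33, edgeR adjusted p = 0.297, and 0.0171 to 0.561 over the alternatives, the lowest by DESeq2). Mymx, counted below 0.5 CPM in every library, was at 2.74 (SE 0.86, edgeR adjusted p = 0.436). The sum of the list is carried by Myod1, which was at −0.14, and ran from 122 to 173 CPM in Gli3+/+ and from 134 to 148 CPM in Gli3 Δ/Δ.

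The summed levels of the remaining marker lists, in CPM, overlapped between Gli3+/+ and Gli3 Δ/Δ QSCs. Endothelial markers, led by Tek, ran from 150 to 208 and from 131 to 160, fibro-adipogenic markers, led by Col1a1, from 171 to 414 and from 208 to 281, and myofiber markers, led by Acta1, from 29.8 to 45.1 and from 33.6 to 50.7. Blood cells were scarce and uneven. Macrophage markers, led by Cd68, ran from 11.0 to 24.0 and from 9.76 to 15.7, leukocyte markers, led by Cd79a, from 1.75 to 3.55 and from 1.60 to 2.69, neutrophil markers, led by S100a9, from 0.0696 to 15.3 and from 3.16 to 8.99, and erythroid markers, led by Hbb-bs, from 23.8 to 222 and from 21.5 to 109. Genes of the dissociation response, led by Egr1, summed to 32000 to 47600 and to 32900 to 38200, with all 7 fitted lower in Gli3 Δ/Δ and 0 called by edgeR, also 0 at an unadjusted p under 0.05.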
